A study of Rattus norvegicus with 32 samples.

Results

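The genes described here build, anchor, cross-link or cut the extracellular matrix of C6 cells: laminin chains, collagen chains, nidogens, fibronectin, Sparc, tenascin C, lysyl oxidases, matrix metalloproteinases (MMPs), ADAMTS proteases and the tissue inhibitors of metalloproteinases (TIMPs). They were taken from the array by gene name alone, without use of any measured value, as every laminin alpha, beta or gamma chain, numbered collagen chain, Mmp, Timp and numbered Adamts gene, plus Fn1, Sparc, Nid1, Nid2, Hspg2, Tnc, Lox, Loxl1 and Loxl2 where the array names them. The rule gave 92 of the 26583 gene names on the array, measured by 114 probes on 186 spots. C6 is an astrocyte-like line from a chemically induced rat glioma. The cells received no agent (Control), angiotensin II at 100 nM (Ang II), Ang II after 30 min with 10 µM losartan, which blocks the AT1 receptor (Ang II+Los), or Ang II after 30 min with 10 µM PD123319, which blocks the AT2 receptor (Ang II+PD123319). RNA was taken at 3 h and at 6 h, with 4 replicates of each of the 8 groups, on 32 single-dye Agilent arrays. All groups share the one cell line grown to confluence in serum-containing medium, and no group received an antagonist without Ang II. Nothing in the labels says whether replicates were separate cultures, so the p-values measure only the spread between these samples, which may be technical.

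Basement membranes are sheets in which laminin trimers of an alpha, a beta and a gamma chain and a network of type IV collagen are joined by nidogens and perlecan, while fibrillar collagens give the stroma its tensile strength. MMPs and ADAMTS proteases cut these proteins, TIMPs hold the MMPs in check, and lysyl oxidases cross-link collagen. Glioma cells meet such matrix mainly around blood vessels, and the making and cutting of matrix is known to accompany their spread through brain tissue.

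Each slide held the 4 treatments of one replicate number at one time, so that the slide entered the fit as a block, and Control, Ang II, Ang II+Los and Ang II+PD123319 always lay at the same place of the slide, so that place and treatment cannot be told apart. Between 55.9% and 64.72% of spots were well above background at 3 h and between 64.23% and 79.75% at 6 h. The glial genes S100b, Vim and Nes were well above background on 16 of 16 arrays at each time, while Gfap, the defining filament of astrocytes, was so on 0 at 3 h and 2 at 6 h. Of the markers of other cells, Ptprc, Pecam1 and Tek were above background on no array, whereas Aif1, Itgam and Snap25 were on all and Cdh5, Syp, Mbp and Mog on some; the part of such cells in the results was not tested. Levels below are log2 signals after cyclic loess, listed for replicates 1 to 4 in that order, and a difference is the log2 value of the first group minus the second with limma's standard error (SE). A difference is said to be past both limits where limma's unadjusted p was below 0.05 and the fold above 1.2 or below 0.8. A level belongs to its probe, so levels of different genes are not compared.

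At 3 h 43 of the 92 genes were tested, since at least 1 of their probes stood well above background throughout 1 or more of the 4 groups, and at 6 h 59 were, including those 43. Neither time gave a test for 33 genes. Of these, Lama1, Col4a3, Col4a4, Col8a2, Col24a1, Mmp7, Mmp8, Mmp20, Mmp27, Adamts12, Adamts14 and Adamts18, 12 genes in all, were well above background on no array. The others without a test included Nid1, Lox, the gelatinase Mmp9, Lama4, Lamc3 and Col4a5.

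Ang II against Control at 3 h moved 10 of the 43 tested matrix genes past both limits, where 11% of all 13630 genes tested passed. Of these 1 was higher, against 4.99% of all genes, and 9 were lower, against 5.98%. The laminin chains Lama5, Lamb1 and Lamb3, the collagens Col1a2, Col5a3, Col9a1 and Col19a1 and the proteases Mmp13 and Mmp19 were lower. The median log2 difference of the 43 was -0.15 against 0.00 over all genes, and 31 of the 43 were below 0. At 6 h 8 of 59 passed, 6 higher and 2 lower, where 11.5% of 16446 genes did, 6.78% higher and 4.68% lower, with a median of -0.07 against -0.01 and 40 of 59 below 0. Among the higher were Lama3, Loxl1, Mmp2, Mmp11 and Timp4, and the beta chains Lamb1 and Lamb2 were lower. Scaling each array to its 75th percentile changed the 6 h split to 5 higher and 5 lower. Over all genes that scaling moved the lower calls from 54.52% to 77.11% of the calls at 3 h and from 40.82% to 55.8% at 6 h.

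Ang II+Los against Ang II moved 4 of 43 genes at 3 h, where 10.2% of all genes passed, 4.7% higher and 5.47% lower. Timp2, 1 gene, was higher, and 3 genes, among them Col8a1 and Tnc, were lower. Quantile normalization split the calls into 2 higher and 2 lower, and the 75th percentile into 2 and 3. At 6 h only Lama5 passed, lower, of 59 genes tested, where 0.9% of all genes did and 0.365% were lower. The majority, 49 of the 59, were below 0, with a median of -0.09 against 0.00 for all genes. Lama5 no longer passed under either of the other scalings.

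Ang II+PD123319 against Ang II moved 3 of 43 genes at 3 h, with Col19a1 higher and Mmp3 among those lower, where 2.66% of all genes passed, 2.02% higher and 0.638% lower. At 6 h 8 of 59 passed, 6 higher and 2 lower, where 3.79% of all genes did, 2.57% higher and 1.22% lower. The 6 were the collagens Col1a1, Col2a1, Col5a3, Col9a2 and Col11a2 and the procollagen protease Adamts2, and the 2 were Col6a6 and Mmp10. The median of the 59 was 0.03, and 22 were below 0. Under the 75th percentile the calls were 1 higher and 1 lower at 3 h and 6 higher and 1 lower at 6 h, and over all genes lower calls moved from 23.97% to 6.318% of the calls at 3 h and from 32.1% to 9.487% at 6 h. All comparisons against Ang II use the Ang II arrays that the comparison with Control also uses, so a gene high or low on those arrays enters each of them.

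With adjustment over all genes (Benjamini-Hochberg), limma left 0 genes of any kind (0%) below an adjusted p of 0.05 in these 6 comparisons. At the unadjusted p of 0.05 the matrix genes numbered 11, 4 and 3 of 43 at 3 h, for Ang II, losartan and PD123319 in turn, where 12.7%, 11% and 3.01% of all genes passed it. At 6 h they numbered 14, 4 and 10 of 59, where 21.5%, 1.99% and 6.37% did. Their lowest adjusted p was 0.32, 0.43 and 1.00 at 3 h and 0.12, 1.00 and 0.45 at 6 h. Of the 34 calls, 7 stayed past both limits with each replicate left out in turn, among them Lamb1 and Mmp19 for Ang II at 3 h and Col1a1, Col6a6 and Adamts2 for PD123319 at 6 h. Apart from Lamb1, the calls named here ended under another background correction (normexp), where Col6a6 was at -0.06. Col6a6 was not well above background on every PD123319 array, which leaving out a replicate does not test. The Col1a1 call is the mean of probes at 0.07 and 0.63. Leaving out replicate 2 ended 22 calls and replicate 4 ended 21, against 10 for replicate 1 and 11 for replicate 3. A fit without the slide term kept the differences but ended 29 of the 34 on p.

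**Figure D1:**
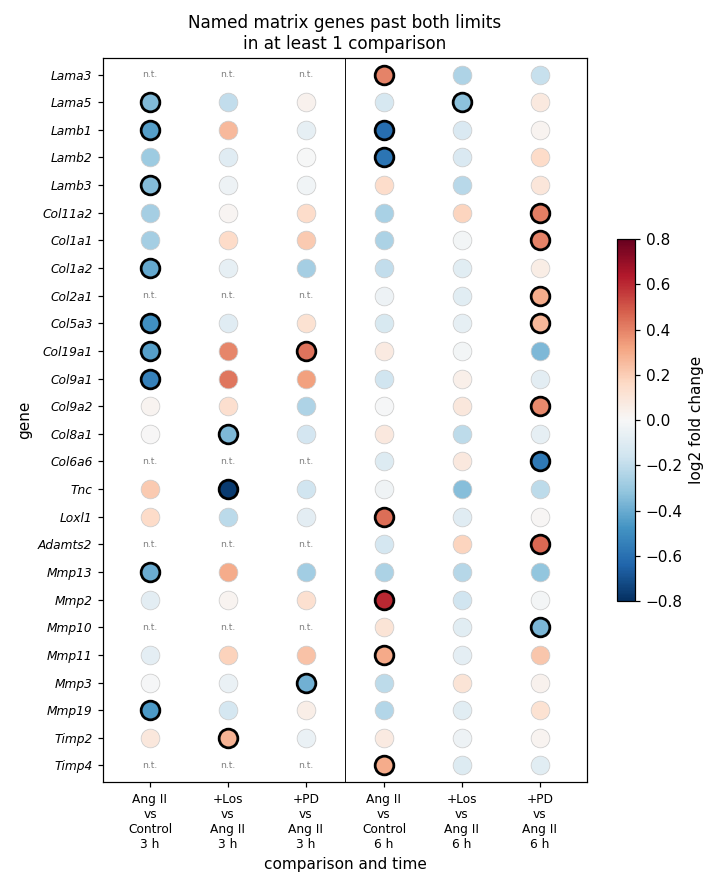
Log2 differences of 26 matrix genes past both limits in at least 1 of the 6 comparisons, with genes in rows, comparisons in columns and the colour of each circle giving the log2 difference from blue (lower) to red (higher). Black rings mark differences past both limits and n.t. marks genes not tested. The Ang II column at 3 h has 9 blue rings, and the PD123319 column at 6 h 6 red and 2 blue.

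For the genes whose values the results turn on, the array carries 60-base probes, and those of Lamb1, Col1a1, Mmp2, Adamts2 and Col6a6 are printed to show which stretch of each transcript was read (rn4, 5′ to 3′ on the strand given; no letters are marked). Lamb1 lies at chr6:49182887-49182946 on the plus strand, Col1a1 at chr10:83637956-83638015 on the plus strand, Mmp2 at chr19:15246805-15246864 on the minus strand, Adamts2 at chr10:36377019-36377078 on the plus strand and Col6a6 at chr8:110790473-110790532 on the minus strand. For Col1a1 and Mmp2 this is 1 of 2 probes read at 6 h, and the pair disagreed, as given with their values.
Lamb1: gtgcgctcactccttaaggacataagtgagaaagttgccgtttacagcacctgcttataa
Col1a1: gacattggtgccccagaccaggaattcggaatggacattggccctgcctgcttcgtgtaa
Mmp2: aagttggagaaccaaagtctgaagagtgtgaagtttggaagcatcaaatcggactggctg
Adamts2: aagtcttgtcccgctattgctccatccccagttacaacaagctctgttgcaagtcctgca
Col6a6: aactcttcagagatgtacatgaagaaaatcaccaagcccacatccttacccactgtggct

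Among the laminin chains past both limits were Lama5, Lamb1 and Lamb3 for Ang II at 3 h and Lama3, Lamb1 and Lamb2 at 6 h. Lamb1, the beta chain of the most widely made laminins, gave log2 signals of 9.86, 11.63, 11.33 and 11.93 in Control at 3 h. With Ang II Lamb1 read 9.70, 11.10, 10.86 and 11.31. Each Ang II array lay below the Control array of its slide, at -0.16 to -0.62, although the 2 groups overlap because slide 1 was low throughout. The Lamb1 difference was -0.44 (SE 0.12, adjusted p = 0.32), and between -0.52 and -0.39 with a replicate left out. The 3 h Lamb1 signals with PD123319 were 9.69, 10.85, 10.96 and 11.19, -0.51 from Control (SE 0.12, adjusted p = 0.46). With losartan they were 10.10, 11.29, 11.11 and 11.51, which left Lamb1 0.33 above the PD123319 arrays (SE 0.12, adjusted p = 0.34) and -0.19 from Control, not past the limits. That difference between antagonists did not pass without replicate 2 (0.29) or replicate 4 (0.34).

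At 6 h Lamb1 read 10.17, 12.03, 10.98 and 11.96 in Control and 10.22, 10.73, 10.97 and 10.79 with Ang II. The pairs of replicates 2 and 4 were at -1.30 and -1.17, while those of replicates 1 and 3 were at 0.04 and -0.01. The difference of -0.61 (SE 0.21, adjusted p = 0.14) was -0.38 without replicate 2 and -0.42 without replicate 4, and passed in neither case. Lamb2, the beta chain of synaptic and vascular laminins, had the same 2 replicates high in Control, with 7.90, 10.00, 8.18 and 9.88 against 8.31, 8.82, 7.85 and 8.65 with Ang II. The pairs of Lamb2 differed by 0.40, -1.19, -0.33 and -1.23. Its difference was -0.59 (SE 0.24, adjusted p = 0.20), and -0.39, -0.67 and -0.37 without replicates 2, 3 and 4, none of which passed.

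Lamc1, the gamma chain of most laminins, stayed between -0.17 and 0.01 in the 6 comparisons and passed in none. These are means of 2 probes, which for losartan against Ang II at 3 h went opposite ways, at 0.13 and -0.41. For Ang II at 3 h the Lamc1 difference of 0.01 (SE 0.15) was the mean of pairs at -0.05, 0.39, -0.39 and 0.08, and it turned to -0.04 under 75th percentile scaling and -0.03 under quantile normalization. Lama5, an alpha chain of vascular basement membranes, read 9.74, 11.68, 13.10 and 11.93 in Control at 3 h and 11.50, 12.51 and 11.51 on replicates 2 to 4 with Ang II, with replicate 1 at -0.24 from its Control. All 4 pairs of Lama5 were lower, at -0.18 to -0.59, under slide means that spanned 3.01 log2 units. The difference of -0.36 (SE 0.15, adjusted p = 0.38) did not pass without replicate 1 (-0.38), 3 (-0.29) or 4 (-0.33).

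The 6 h Lama5 values were 10.18, 11.48, 10.56 and 11.58 with Ang II and 9.96, 11.28, 9.88 and 11.36 with losartan, lower on each slide. The difference was -0.33 (SE 0.15, adjusted p = 1.00), and -0.37, -0.21 and -0.36 without replicates 2, 3 and 4, none past the limits. Lama3 and Lamb3, an alpha and a beta chain of epithelial basement membranes, each passed at one time. Lamb3 at 3 h gave 5.19, 5.28, 4.64 and 5.09 in Control against 5.08, 4.63, 4.33 and 4.78 with Ang II, lower in every pair at -0.35 (SE 0.15, adjusted p = 0.38), but -0.25 without replicate 2 and -0.36 without replicate 3, not past the limits. Lama3, tested at 6 h alone, gave 5.39, 4.77, 6.38 and 5.09 in Control against 6.17, 5.17, 6.57 and 5.30 with Ang II, higher in every pair at 0.40 (SE 0.16, adjusted p = 0.18). Without replicate 1, 2 or 4 the Lama3 difference was 0.27, 0.39 and 0.45 and did not pass. Lamb3 at 6 h stood at 0.14, not past the limits.

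**Figure D2:**
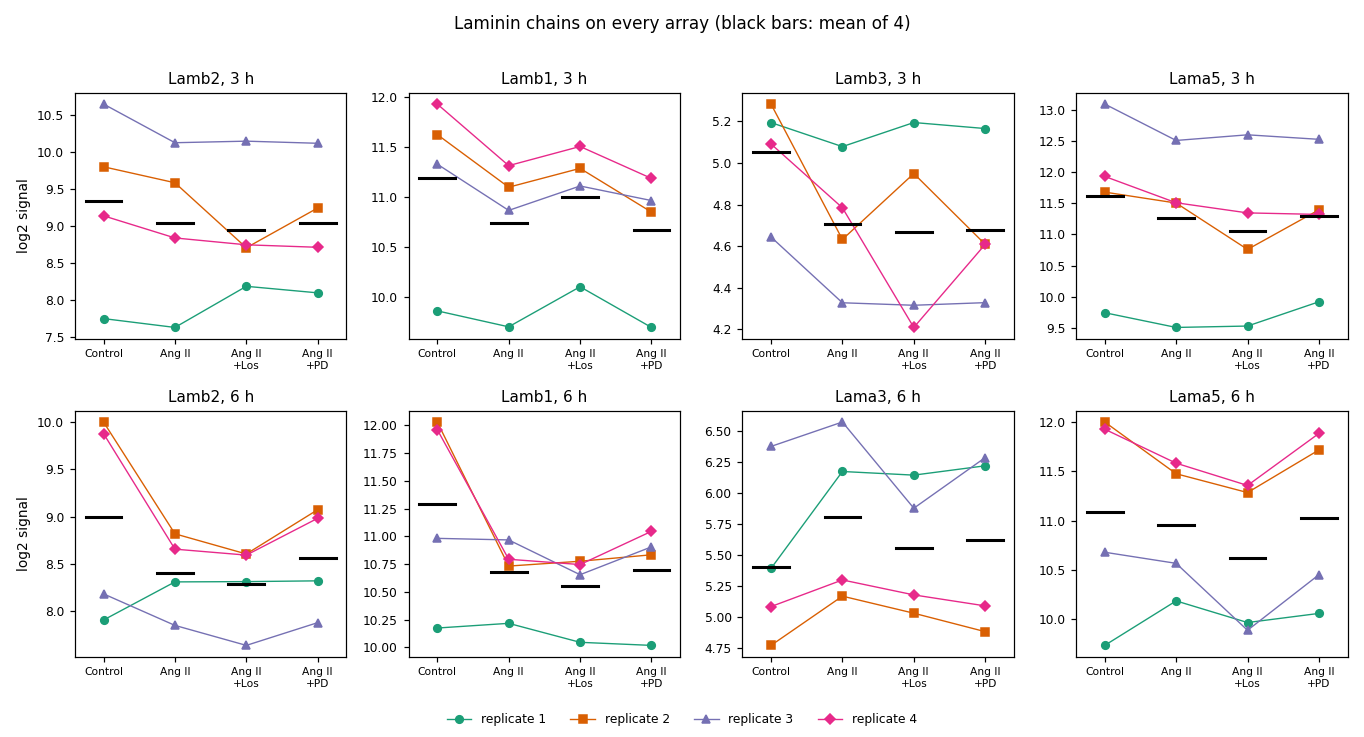
Log2 signal of laminin chains on every array, with one line per replicate (slide) across Control, Ang II, Ang II+Los and Ang II+PD123319 and black bars for the mean of 4. Lamb1 at 3 h lies lower with Ang II than in Control on each slide, and at 6 h it drops from Control to Ang II on replicates 2 and 4 while replicates 1 and 3 stay within 0.04.

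Fibrillar collagens, whose chains form the cross-striated fibres of stroma, were tested for 7 genes at 3 h and 9 at 6 h. For Ang II at 3 h all 7 lay below 0, with a median of -0.27. Col5a3 and Col1a2 passed, where 5.98% of all genes passed lower. Col5a3, a type V chain that helps to start fibrils, read 10.76, 10.79, 11.07 and 10.55 in Control and 10.51, 10.15, 10.22 and 10.33 with Ang II. Here the 2 groups did not overlap, and how often this held over all genes tested was not counted. The difference was -0.49 (SE 0.16, adjusted p = 0.32), and -0.37 without replicate 3, which did not pass. Col1a2, the second chain of type I collagen, differed by -0.41 (SE 0.18, adjusted p = 0.38) with 3 of 4 pairs lower, and by -0.46, -0.27 and -0.33 without replicates 1, 2 and 3, none past the limits. Its partner chain Col1a1 stood at -0.27 and did not pass.

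PD123319 against Ang II at 6 h gave the larger set. Of 9 fibrillar collagens 4 passed, all higher, where 2.57% of all genes did so. The median of the 9 was 0.27. Of the remaining collagens, 0 of 6 basement membrane and network chains passed, 1 of 3 beaded filament chains was lower and 1 of 6 other types higher. Normexp background correction left 0 matrix genes past both limits here, and over all genes calls fell from 623 to 157. Col1a1 read 5.26, 5.97 and 6.10 with Ang II on replicates 1, 2 and 4, replicate 3 being a gap, and 5.92, 6.13, 6.62 and 6.49 with PD123319. The 3 pairs were higher by 0.66, 0.17 and 0.39. From these the fit gave 0.40 (SE 0.09, adjusted p = 0.46), between 0.28 and 0.51 with a replicate left out. The 2 Col1a1 probes differed, at 0.07 for the printed probe and 0.63 for the other, so the mean rests on 1 of them. Over the same PD123319 arrays, losartan minus PD123319 was -0.42 for Col1a1 (SE 0.09, adjusted p = 0.27), from 4 pairs. There too the probes differed, at -0.09 for the printed probe and -0.75 for the other.

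Col2a1, the cartilage collagen, read 5.98, 5.10, 4.52 and 4.09 with Ang II at 6 h and 6.11, 5.42, 4.80 and 4.54 with PD123319. Every pair was higher, by 0.14 to 0.45, with overlapping groups. The difference of 0.30 (SE 0.12, adjusted p = 0.74) did not pass without replicate 2 (0.27) or 4 (0.25). Col5a3 gave 10.68, 10.39, 10.21 and 10.09 with Ang II and 11.05, 10.66, 10.22 and 10.50 with PD123319, 0.27 higher (SE 0.12, adjusted p = 0.76). That call ended without replicate 1 (0.23), 2 (0.27) or 4 (0.22) and under 75th percentile scaling. Col11a2, a chain that sets fibril width in cartilage, was at 0.41 (SE 0.15, adjusted p = 0.67) with 3 of 4 pairs higher; without replicates 2, 3 and 4 it was 0.41, 0.40 and 0.23 and did not pass. Col3a1, Col5a1 and Col5a2 stood between -0.01 and 0.13 and did not pass.

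**Figure D3:**
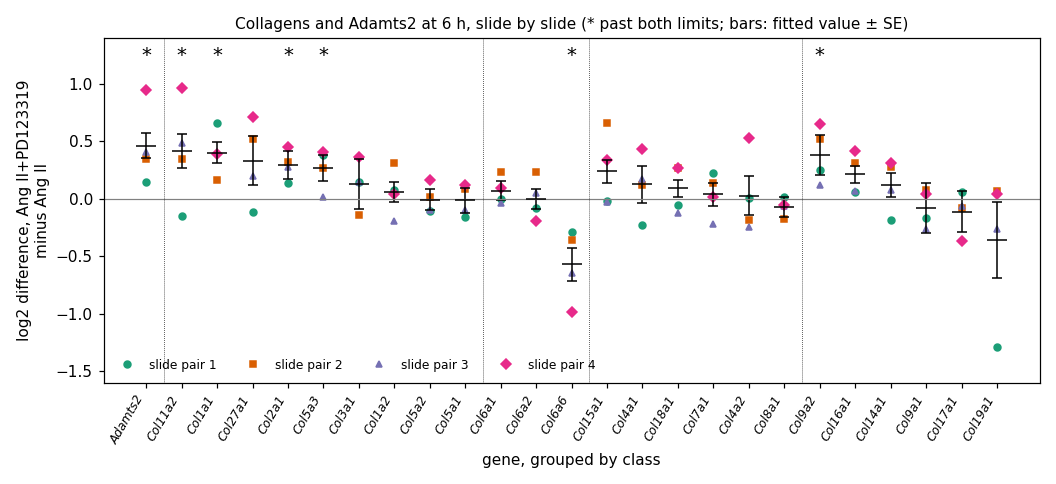
Log2 difference of Ang II+PD123319 minus Ang II at 6 h for Adamts2 and the 24 collagens tested, grouped by class, with a coloured point for the pair of arrays on each slide and a bar for the fitted value ± SE from limma. Stars mark genes past both limits. For Adamts2, Col2a1 and Col9a2 all 4 points lie above 0, and for Col6a6 all 4 lie below.

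Adamts2, the protease that cleaves the amino-terminal propeptide of procollagen, moved with PD123319 at 6 h as well. Its signals were 5.48, 4.96, 4.42 and 3.70 with Ang II and 5.63, 5.31, 4.82 and 4.65 with PD123319. All 4 pairs were higher, by 0.15 to 0.95, and the groups overlapped. The difference was 0.46 (SE 0.11, adjusted p = 0.45), and 0.31 without replicate 4, still past both limits. Against Control it was 0.32 (SE 0.11, adjusted p = 0.12), with Control at 5.46, 5.13, 4.47 and 4.05.

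Col6a6, a chain of the beaded filaments of type VI collagen, went the other way in the same comparison. Ang II gave 3.89, 3.79, 3.41 and 3.02 and PD123319 3.60, 3.43, 2.76 and 2.03. The 4 pairs were at -0.29 to -0.99. This dim probe stood well above background on every Ang II array, 4 of 4, but on 2 of 4 with PD123319, with the cause not tested. The difference was -0.57 (SE 0.14, adjusted p = 0.48), between -0.67 and -0.42 with a replicate left out. Against Control, at 4.11, 3.54, 3.62 and 3.28, it was -0.68 (SE 0.14, adjusted p = 0.045). Col6a6 was tested at 6 h because Control and Ang II stood above background throughout, so the size of both differences rests in part on PD123319 signals that did not. Normexp background correction brought these Col6a6 differences to -0.06 and -0.03, inside the fold limits.

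Among collagens of other types, Col19a1 and Col9a1, which associate with fibrils and matrix edges, were lower with Ang II at 3 h. Col19a1 read 6.33, 5.88, 5.75 and 5.84 in Control, 5.86, 5.26, 5.81 and 5.10 with Ang II and 5.94, 5.81, 5.96 and 6.06 with PD123319. Replicates 2 and 4 of Ang II were low and replicate 3 was not. Ang II lay -0.44 from Control (SE 0.19, adjusted p = 0.38) and PD123319 0.44 above Ang II (SE 0.19, adjusted p = 1.00), over the same Ang II arrays. The first was -0.38 without replicate 2 and -0.34 without replicate 4, and the second 0.40, 0.53 and 0.26 without replicates 2, 3 and 4, none past the limits. Col9a1 differed by -0.54 for Ang II (SE 0.20, adjusted p = 0.35), and by -0.46 and -0.40 without replicates 2 and 4, which did not pass.

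Col9a2, the partner chain of Col9a1, was instead higher with PD123319 at 6 h, with 5.00, 4.60, 3.91 and 4.82 for Ang II and 5.25, 5.13, 4.03 and 5.47 for PD123319. All pairs were higher and the groups overlapped, at 0.38 (SE 0.17, adjusted p = 0.78), but 0.43, 0.32 and 0.29 without replicates 1, 2 and 4 did not pass. The endothelial network collagen Col8a1 was lower with losartan at 3 h on every slide, at 8.20, 8.10, 7.38 and 8.78 with Ang II against 7.96, 7.41, 7.02 and 8.63. Its difference was -0.36 (SE 0.14, adjusted p = 0.43), and -0.40, -0.26 and -0.41 without replicates 1, 2 and 4, not past the limits. Type IV collagen, the core of basement membranes, gave no call in the 6 comparisons: Col4a1 and Col4a2 stood at 0.12 and 0.21 for Ang II at 6 h, and Col4a1 at 0.12 for Ang II and -0.38 for PD123319 at 3 h. Col15a1 and Col18a1, basement membrane collagens with cleavable ends, did not pass in the 6 comparisons either.

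At the edges of the tested range, among genes well above background on all 16 arrays of a time, several differences did not pass the limits. With Ang II at 3 h Col15a1 stood at 0.28 (SE 0.19) and Tnc at 0.21 (SE 0.35). With losartan Col19a1 stood at 0.39 (SE 0.19), Mmp16 at 0.34 (SE 0.16) and Mmp13 at 0.30 (SE 0.17) at 3 h, and Tnc at -0.34 (SE 0.27), Adamts2 and Col11a2 both at 0.18 and Mmp17 at 0.13 at 6 h. With PD123319 Mmp13 and Adamts1 stood at -0.28 at 3 h, with all 4 pairs lower, and Col1a1 at 0.21 with all 4 higher. At 6 h Col19a1 stood at -0.36 (SE 0.33) and Mmp13 at -0.32 (SE 0.19).

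Fibronectin (Fn1), which links cells to matrix, passed in none of the 6 comparisons, and its 2 probes gave -0.06 and -0.53 for Ang II at 6 h. Tenascin C (Tnc), a glycoprotein that gliomas are known to deposit, was lower with losartan at 3 h. Tnc read 10.25, 11.34, 9.43 and 9.82 with Ang II and 9.96, 8.75, 9.43 and 9.65 with losartan. The pairs were -0.29, -2.59, -0.01 and -0.18, so that replicate 2 carried the difference of -0.77 (SE 0.35, adjusted p = 0.43). Without replicate 2 it was -0.16, and without replicates 1 and 4 -0.92 and -0.96, none of which passed. Sparc, a collagen-binding matricellular protein, gave 13.26, 12.84, 12.70 and 14.12 with Ang II and 11.82, 11.38, 12.85 and 14.10 with losartan. The pairs of replicates 1 and 2 were at -1.44 and -1.45 and the others at 0.15 and -0.02, and the difference of -0.69 (SE 0.33, adjusted p = 0.43) did not pass.

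The cross-linking oxidase Loxl1 was higher with Ang II at 6 h by 0.44 (SE 0.16, adjusted p = 0.15), with 3 of 4 pairs higher and replicate 2 giving 1.02. Without replicate 2 it was 0.25 and without replicate 4 0.40, and it did not pass. Loxl2 passed in none of the 6 comparisons. Nidogen 2 (Nid2), the basement membrane linker tested at 6 h, stood between 0.04 and 0.11.

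The metalloproteinases passed the limits one gene at a time. Mmp19, a basement membrane protease, was lower with Ang II at 3 h, with 7.17, 8.01, 8.26 and 8.16 in Control and 6.77, 7.22, 7.90 and 7.87. Every pair was lower, at -0.29 to -0.79, and the groups overlapped. The difference was -0.46 (SE 0.11, adjusted p = 0.32), between -0.51 and -0.35 with a replicate left out. Losartan, at 6.54, 7.03, 7.85 and 7.78, and PD123319, at 6.66, 7.38, 8.08 and 7.85, were also below Control on each slide, at -0.60 (SE 0.11, adjusted p = 0.18) and -0.41 (SE 0.11, adjusted p = 0.46).

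Mmp2, the gelatinase that cuts type IV collagen, was higher with Ang II at 6 h. Control gave 5.66, 4.91, 4.74 and 5.27 and Ang II 5.59, 6.01, 5.24 and 6.16. Replicates 2, 3 and 4 were higher by 1.10, 0.49 and 0.89 and replicate 1 was not, at -0.07. The difference of 0.60 (SE 0.18, adjusted p = 0.12) is the mean of 2 probes: the printed one, well above background on 14 of 16 arrays, gave 0.95, and the other, above it on all 16, gave 0.26. With probes above background on every array only the latter counts and the call ends, and without replicate 4 it was 0.51 and did not pass. The probe measured at both times gave -0.09 at 3 h and 0.26 at 6 h. For the gene, the change of the Ang II difference from 3 h to 6 h was 0.69 (SE 0.21, adjusted p = 0.67), which sets 1 probe against 2.

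Mmp11, stromelysin 3, gave 6.70, 6.47, 6.96 and 6.54 in Control at 6 h, 6.87, 6.75, 7.01 and 7.24 with Ang II, and 6.86, 7.18, 7.24 and 7.49 with PD123319. Both treated groups lay above Control on all slides. Ang II was 0.30 higher (SE 0.12, adjusted p = 0.18), but 0.31 without replicate 2 and 0.17 without replicate 4 did not pass. PD123319 was 0.52 above Control (SE 0.12, adjusted p = 0.052).

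Mmp3, Mmp10 and Mmp13, 2 stromelysins and the rat collagenase, lie in a run of MMP genes on chromosome 8, where the array holds 8 of them over 365 kb in rn4; the other 5 were not tested at either time. Since these neighbours each passed the limits in some comparison, their upstream bases are shown. RefSeq (GRCr8) gave a promoter of 300 bases, 250 before and 50 after the gene start, for 68 of the 92 genes. The letters TGANTCA, an AP-1 type motif that is its own reverse complement, stood in 8 of these 68 (11.8%) and in 2453 of all 33469 promoters (7.33%); the 8 were Mmp3, Mmp7, Mmp10, Mmp12, Mmp13, Mmp20, Lama3 and Col6a1. The motif began 71, 61 and 66 bases before the start of Mmp3, Mmp10 and Mmp13. Such a match is a description of letters only. Capitals mark it in the 250 bases before each start, all on the plus strand: Mmp3 at chr8:12925031-12925280, Mmp10 at chr8:12974457-12974706 and Mmp13 at chr8:12782579-12782828.
Mmp3: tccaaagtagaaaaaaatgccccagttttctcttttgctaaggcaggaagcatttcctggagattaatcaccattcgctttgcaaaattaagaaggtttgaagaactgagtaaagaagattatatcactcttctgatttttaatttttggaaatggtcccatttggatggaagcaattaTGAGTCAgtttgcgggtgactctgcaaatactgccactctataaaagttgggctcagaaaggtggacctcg
Mmp10: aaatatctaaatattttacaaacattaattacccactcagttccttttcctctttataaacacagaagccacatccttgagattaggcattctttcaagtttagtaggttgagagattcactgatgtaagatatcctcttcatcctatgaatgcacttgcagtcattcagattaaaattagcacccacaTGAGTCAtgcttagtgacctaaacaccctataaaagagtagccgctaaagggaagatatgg
Mmp13: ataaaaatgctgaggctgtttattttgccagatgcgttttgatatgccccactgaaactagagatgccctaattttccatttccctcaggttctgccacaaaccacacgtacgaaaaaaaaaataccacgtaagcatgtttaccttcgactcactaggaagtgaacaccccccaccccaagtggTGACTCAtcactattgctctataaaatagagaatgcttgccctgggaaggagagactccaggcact

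Mmp13, the main interstitial collagenase of rodents, read 4.89, 6.59, 5.55 and 6.37 in Control at 3 h and 4.94, 6.04, 5.43 and 5.40 with Ang II. The pairs of replicates 2 and 4 were at -0.55 and -0.97, and the difference of -0.40 (SE 0.17, adjusted p = 0.38) was -0.34 without replicate 2 and -0.20 without replicate 4, not past the limits, nor did it pass after quantile normalization. PD123319 gave 4.68, 5.64, 5.29 and 5.08, below Control on each slide at -0.68 (SE 0.17, adjusted p = 0.46), while losartan gave 5.35, 6.43, 5.55 and 5.68, 0.58 above PD123319 (SE 0.17, adjusted p = 0.34). The antagonist arrays of Mmp13 kept that order on all 4 slides.

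Mmp3, stromelysin 1, was lower with PD123319 than with Ang II at 3 h, at 2.32, 7.83, 5.85 and 7.35 against 2.90, 8.47, 5.83 and 7.70. The Mmp3 probe stood well above background on 13 of 16 arrays at 3 h. Its pairs of replicates 1, 2 and 4 were at -0.58, -0.64 and -0.34. The difference was -0.38 (SE 0.14, adjusted p = 1.00), but -0.28 without replicate 1 and -0.33 without replicate 2 did not pass. After normexp background correction the Mmp3 difference was -0.25, inside the fold limits. Mmp10, stromelysin 2, gave 3.49, 5.99, 6.09 and 6.44 with Ang II at 6 h and 3.43, 5.74, 5.60 and 5.79 with PD123319. All pairs were lower, at -0.07 to -0.65, with a difference of -0.36 (SE 0.14, adjusted p = 0.72), and the call ended without replicate 3 (-0.33) or 4 (-0.28) and under 75th percentile scaling. The 60-base probes of Mmp3 and Mmp10 share no run of letters longer than 5 bases, but neither was compared with the transcript of the other gene.

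Membrane-type MMPs, which act at the cell surface and activate pro-Mmp2, gave no call: Mmp14 stood between -0.13 and 0.09, Mmp16 between -0.20 and 0.34, and Mmp15 between -0.46 and 0.30 in the 6 comparisons. Mmp15 for Ang II at 6 h rested on replicate 2, with a pair at -1.87, and was 0.02 without it. Of the aggrecanases, Adamts1, Adamts4, Adamts9 and Adamts15 were tested and none passed in the 6 comparisons. The highest for Ang II at 6 h was Adamts9 at 0.41 (SE 0.23, adjusted p = 0.33).

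Among the TIMPs, Timp2 passed the limits with losartan at 3 h and Timp4 with Ang II at 6 h. Timp2, the inhibitor that also takes part in Mmp2 activation, read 14.52, 14.52, 13.96 and 14.06 with Ang II at 3 h and 14.96, 14.76, 14.21 and 14.25 with losartan. All 4 pairs were higher, by 0.19 to 0.43, with overlapping groups. The difference of 0.28 (SE 0.12, adjusted p = 0.43) was 0.23, 0.29 and 0.30 without replicates 1, 3 and 4 and did not pass. Timp4 at 6 h gave 3.36, 4.61, 4.68 and 5.04 in Control and 4.07, 4.88, 4.83 and 5.09 with Ang II, higher in each pair by 0.05 to 0.71. Its difference of 0.30 (SE 0.12, adjusted p = 0.20) came from probes at 0.52 and 0.07; without replicate 1 it was 0.15 and without replicate 2 0.32, neither past the limits, and both other scalings ended it.

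Timp1, the inducible inhibitor, was lower with Ang II at 6 h on each slide, at 4.80, 4.99, 5.12 and 5.24 against 4.65, 4.89, 4.93 and 4.76. The difference of -0.23 (SE 0.09, adjusted p = 0.18) was inside the fold limits. Timp3, the matrix-bound inhibitor, stood at -0.03, -0.31 and -0.15 for Ang II, losartan and PD123319 at 6 h and passed in none.

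**Figure D4:**
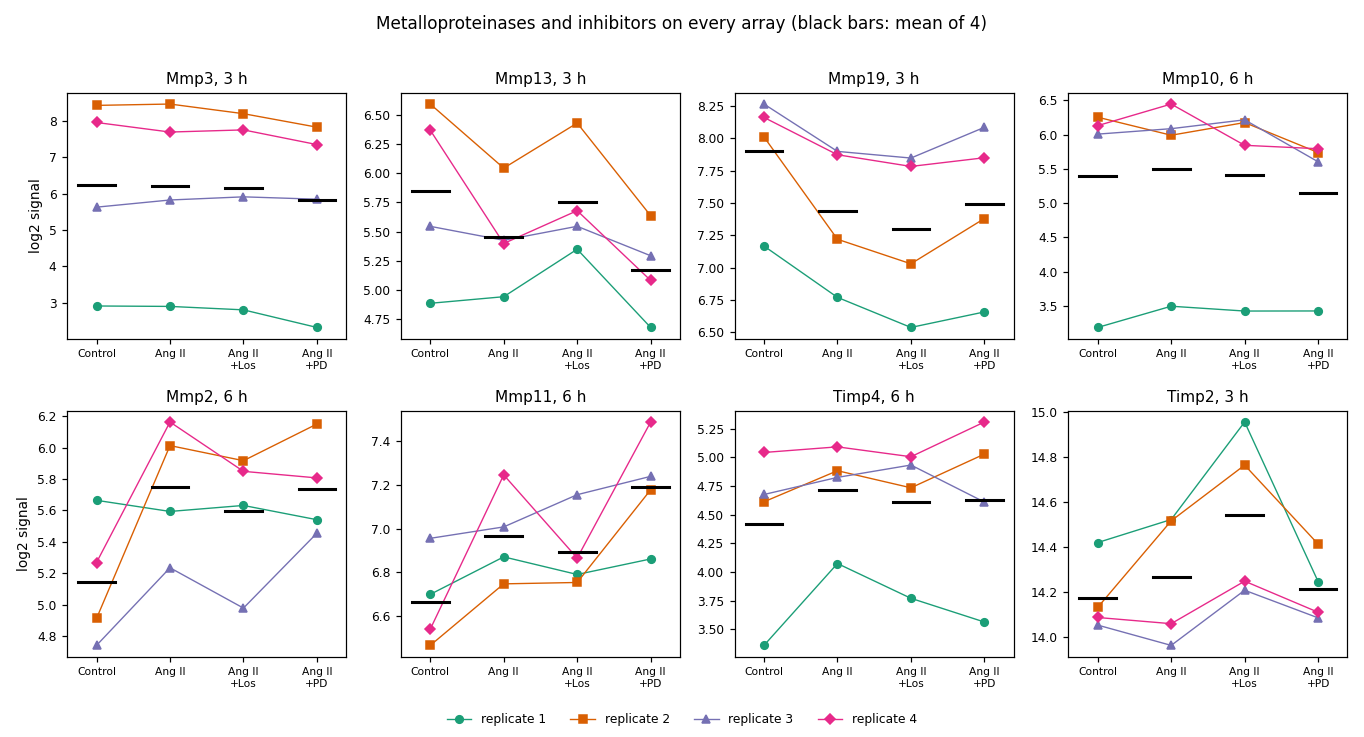
Log2 signal of 6 metalloproteinases and 2 inhibitors on every array, one line per replicate across the 4 treatments and black bars for the mean of 4, at the time given above each panel. Mmp19 at 3 h lies below Control in the 3 treated groups on each slide, and replicate 1 of Mmp3 and Mmp10 lies far below the other slides in every treatment.

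Set against Control, the antagonist groups, which share the Control arrays with the Ang II comparison, gave 11 of 43 matrix genes past both limits at 3 h with losartan, where 20% of all genes passed, 9.9% higher and 10.1% lower, and 8 of 43 with PD123319, where 6.07% did, 2.58% higher and 3.48% lower. In the first 10 were lower, with Sparc at -1.01 (SE 0.33) and Lama5 at -0.55 (SE 0.15), and Timp2 was higher at 0.37 (SE 0.12). Sparc did not pass without replicate 1 (-0.80) or 2 (-0.58). With PD123319 all 8 were lower, among them Lamb1, Col1a2 at -0.68 (SE 0.18), Mmp13 and Mmp19. At 6 h losartan gave 12 of 59, 2 higher and 10 lower, where 11.4% of all genes passed, 6.52% higher and 4.92% lower. PD123319 gave 10 of 59, 5 higher and 5 lower, where 13.5% did, 7.06% higher and 6.4% lower. After adjustment over all genes limma left 224 genes (1.36%) for losartan and 227 (1.38%) for PD123319 at 6 h, of which 0 and 1 were matrix genes, the 1 being Col6a6, which was well above background on 2 of 4 PD123319 arrays. At the unadjusted p of 0.05 matrix genes numbered 22 and 14 of 59, where 22% and 22.9% of all genes passed it.

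Between the antagonists, losartan minus PD123319 gave 8 of 43 genes at 3 h, where 13.2% of all genes passed, 7.1% higher and 6.13% lower. Of the 8, 7 were higher with losartan. They were Lamb1, Col4a1, Mmp3, Mmp13, Mmp16, Adamts1 and Timp2, with Sparc lower at -0.78 (SE 0.33). These calls held unequally over the alternative settings, from 3 of 10 for Col4a1 to 10 of 12 for Mmp13. Mmp3 passed in 5 of 11 and Sparc in 6 of 11. With no probe filter the Col4a1 difference was 0.04, against 0.48 in the main fit. The 75th percentile gave 5 higher and 2 lower. Adamts1, a protease of proteoglycans, differed by 0.56 (SE 0.20, adjusted p = 0.34), and by 0.47 and 0.44 without replicates 1 and 2, which did not pass. At 6 h 7 of 59 passed, where 4.17% of all genes did, 2.13% higher and 2.03% lower. Col6a6 was higher with losartan at 0.65 (SE 0.14), and Lama5, Col1a1, Col2a1, Col5a3, Col15a1 and Fn1 were lower, at -0.34 to -0.42. The 2 Fn1 probes gave -0.19 and -0.54. Col6a6 was tested because Control and Ang II stood well above background throughout, which neither antagonist group did. The size of its difference therefore rests in part on signals that were not well above background. Normexp background correction brought it to 0.06, inside the fold limits. The median of the 59 was -0.15 against 0.00 over all genes, and 48 were below 0. The 75th percentile gave 1 higher and 10 lower, and quantile normalization 2 and 6. Losartan and PD123319 were given at the same dose, and the 2 groups share no array.

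The 3 h and 6 h differences of a gene were set against each other in one fit of 13617 genes. None differed at an adjusted p below 0.05 by limma. At the unadjusted p of 0.05, where 7.17% of all genes passed for Ang II, 3 matrix genes did: Lamb3 with 0.49, Mmp2 with 0.69 and Col15a1 with -0.53 for 6 h minus 3 h. For losartan 4 did (Adamts1, Adamts7, Mmp16 and Timp2, all negative, against 5.08% of genes), and for PD123319 only Col9a2 at 0.63 (against 1.71%).

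Slides separated these genes more than treatments did, and the same count was not made over all genes. At 3 h the range of the 4 slide means exceeded the range of the 4 treatment means in 40 of 43 genes, with medians of 1.10 and 0.38 log2 units, and at 6 h in 53 of 59, with 0.75 and 0.32. Mmp3 was the widest, with slide means of 2.73, 8.23, 5.80 and 7.69 at 3 h and 3.55, 8.37, 7.12 and 8.26 at 6 h. Of the 43 genes tested at both times 16 had the same lowest replicate number at each, and for 10 of these it was replicate 1. By the file headers, replicates 1 and 2 at 3 h were scanned on a different day from replicates 3 and 4. At 6 h replicate 4 was scanned on a different day from replicates 1 to 3. The cause of these slide differences was not tested.

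**Figure D5:**
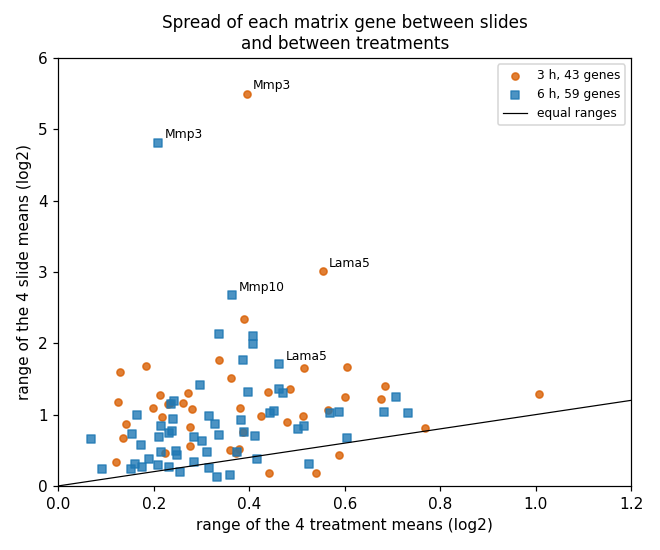
For each matrix gene tested, the range of the 4 slide means against the range of the 4 treatment means, both in log2 units, at 3 h and at 6 h. Points above the diagonal, 40 of 43 at 3 h and 53 of 59 at 6 h, are genes for which slides differed by more than treatments.

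Genes that work with the matrix were taken from a list of receptors, collagen-processing enzymes, proteoglycans, the plasminogen system and protease regulators, of which 43 were tested at 3 h and 47 at 6 h. For Ang II at 3 h 1 of 43 was higher and 2 lower, where 4.99% and 5.98% of all genes were. Plaur, the receptor that holds urokinase at the cell surface, differed by 0.70 (SE 0.25, adjusted p = 0.34), and the lysyl hydroxylase Plod3 by -0.38 and Ecm1 by -0.47. At 6 h 4 of 47 were higher and none lower, where 6.78% and 4.68% of all genes were: Plaur at 0.41 (SE 0.15, adjusted p = 0.15), the sheddase Adam17 at 0.38 (SE 0.10, adjusted p = 0.10), Reck, a membrane inhibitor of MMPs, at 0.28, and thrombospondin 1 (Thbs1) at 0.29.

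Losartan against Ang II at 3 h moved 4 of these 43 partners, where 10.2% of all genes passed, with Mgp, an inhibitor of matrix calcification, higher at 0.63 and the collagen hydroxylase subunit P4hb at -0.48, the integrin Itgb5 at -0.33 and the fibulin Fbln1 at -1.15 (SE 0.48). At 6 h it moved none, and PD123319 none at 3 h. PD123319 at 6 h, where 2.57% of all genes were higher and 1.22% lower, gave 2 of 47 higher, the collagen receptor Ddr1 at 0.54 (SE 0.16, adjusted p = 0.54) and the laminin-binding integrin chain Itgb4 at 0.27, and 2 lower, among them Thbs1 at -0.42. Medians of the partners lay between -0.14 and 0.01 in the 6 comparisons.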

How the data were processed

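C6 cells of 8 groups, 4 samples each, were hybridised to 32 single-dye Agilent arrays, grouped by GEO's labels. Per the file headers, Agilent Feature Extraction 9.5.3.1 wrote spot intensity values after background subtraction, and these deposited intensities were used. The authors' deposited table of log2 values equals the log2 of those intensities in 561803 of 561803 filled cells (tolerance 1e-05), with 38.2% blank. Columns of the authors' own comparisons were not used, and 0 array columns lacked a sample. Probe positions are those of the array files (rn4), and a genome of that build was not used here.

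Spots flagged as outliers in the array files were left out, and a probe with no spot left on an array was a gap (at most 2 per probe and time). Dim spots were kept. The log2 signals of the spots of a probe were averaged, and those of each time underwent cyclic loess (3 iterations, span 0.7). Probes well above background in the 4 arrays of at least 1 group were averaged per gene. limma 3.58.1 in R 4.3.3 (with the package data.table, version 1.17.8) fitted the 16 arrays of each time with replicate number as a block, and p-values were adjusted over all genes by Benjamini-Hochberg. Limits were an unadjusted p of 0.05 and a fold of 1.2 or 0.8. The scripts were tested on simulated data. The number of arrays limits the precision. Tables and figures used Python 3.11.15, pandas 2.3.3, numpy 2.4.6 and matplotlib 3.10.9. The accessions of 83 of 114 probes matched RefSeq, all with the same symbol.

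The study's methods name t-tests for these comparisons, and its series record calls them paired. Replicate number and slide coincide, and deviations from group means correlated within each slide, at 0.149 or more for every pair, so the number was taken to pair the samples. Alternatives were no block, a plain paired test per gene, 75th percentile scaling, quantile normalization, normexp with an offset of 50, other probe filters, each probe on its own, the deposited log2 values and each replicate left out; those for comparisons of an antagonist with Control or of the antagonists with each other were chosen after seeing the data. Named genes are those past both limits, the 3 highest and 3 lowest per comparison among genes above background on all 16 arrays, Lamb1, Lamc1 and Timp1, and partner genes past the limits; the others named show a class or a contrast and were chosen after their values were seen. The members and all lists were chosen with earlier results of these data known. Some genes that passed the limits or stand on these lists are counted but not reported here by name.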

Additional observations from a re-analysis of the deposited data

Results flagged for a closer look

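Of the 47 groups of 4 arrays checked over the genes with values given in every array, 2 held a sample far from the others, by a gap beyond Dixon's critical value for 4 samples. Both were Mmp10, stromelysin 2, at 6 h. Replicate 1 read 3.494 on the log2 scale with Ang II, where the other replicates lay between 5.99 and 6.44, and 3.425 with Ang II+PD123319, where the others lay between 5.60 and 5.79. Chance flags about 1 in 20 groups, but the 2 arrays share a slide and are not separate cases. Over the 4 treatments Mmp10 averaged 3.38 on that slide, against 6.04, 5.98 and 6.05 on the others. The cause was not tested. Without replicate 1 the Mmp10 difference of Ang II+PD123319 minus Ang II was -0.44, against -0.36 with it.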

How the results depend on the processing

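The calls rest on the pairing of arrays by slide. With no replicate block the differences were kept, apart from Col1a1 with its gap, but the count of matrix genes past both limits fell at 3 h from 10 to 3 for Ang II, from 4 to 0 for losartan and from 3 to 1 for PD123319 against Ang II, and at 6 h from 8 to 1, from 1 to 0 and from 8 to 0. The plain paired test gave 5 and 1 at 3 h for Ang II and PD123319, and 0, 0 and 2 at 6 h. Normexp background gave 3, 2 and 0 at 3 h and 5, 0 and 0 at 6 h. Over all genes normexp also lowered the calls, from 1495 to 875, 1386 to 1003 and 363 to 178 at 3 h. At 6 h they fell from 1884 to 756, 148 to 18 and 623 to 157. Counts over all genes with no block or under the paired test are not given here, so those falls are not set apart from the array as a whole. For losartan at 6 h the 75th percentile, quantile normalization, no filter and the deposited values each gave 0, and the deposited values gave 1 at 3 h. Leaving out a replicate gave counts of 6 to 9, 2 to 5 and 0 to 3 at 3 h and of 1 to 12, 0 to 3 and 3 to 8 at 6 h, in the same order.

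Of the 34 calls of these 6 comparisons, 29 were lost with no replicate block, 24 under the paired test, 27 under normexp, 5 under the 75th percentile, 6 under quantile normalization, 7 with no filter, 1 of 30 with probes above background on all arrays and 2 of 24 in the deposited values. Over all 12 comparisons the 79 losses with no replicate block came from p alone, while 33 of the 60 under normexp came from the fold alone, where differences shrank to a median of 0.446 of their size. No scaling moved the median of all genes by more than 0.1. The comparison of 3 h with 6 h had no alternative.

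For losartan against Control, PD123319 against Control and losartan against PD123319, the counts of 11, 8 and 8 at 3 h became 1, 0 and 0 with no replicate block, 4, 3 and 3 under the paired test and 7, 2 and 5 under normexp; the deposited values gave 6 and 5 for the first and the last, and no filter 13 for PD123319 against Control. Leaving out a replicate gave 6 to 12, 4 to 11 and 2 to 12. At 6 h the counts of 12, 10 and 7 became 1, 4 and 0 with no replicate block and 2, 1 and 4 under the paired test. Normexp gave 7 for losartan against Control and 0 between the antagonists, where the 75th percentile gave 11 and no filter 12, and the deposited values gave 6 for losartan against Control. Over all genes normexp lowered the calls of these 2 comparisons from 1881 to 798 and from 685 to 78. At 3 h, for the 3 comparisons in the order above, it lowered them from 2724 to 2009, 827 to 546 and 1804 to 1447. Leaving out a replicate gave 4 to 14, 5 to 19 and 4 to 14.

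Sign changes fell, apart from Adamts15, on differences that were not past the limits. With each replicate left out in turn, Adamts15 for PD123319 against Control at 6 h ranged from -0.52 to 0.12, Tnc for Ang II at 3 h from -0.0011 to 0.37 and Mmp15 for Ang II at 6 h from -0.78 to 0.018. Lamb1 for PD123319 at 6 h ranged from -0.053 to 0.096 and was -0.0031 without replicate 2. Lamc1 ranged from -0.12 to 0.14 for Ang II at 3 h, being -0.017 without replicate 4, from -0.27 to 0.070 for losartan at 3 h, and for PD123319 from -0.23 to 0.0094 at 3 h and from -0.036 to 0.052 at 6 h. Timp1 ranged from -0.0040 to 0.19 for losartan at 3 h, and for PD123319 from -0.12 to 0.0016 at 3 h and from -0.025 to 0.049 at 6 h, being -0.012 without replicate 2. Mmp17 for losartan at 6 h was -0.0035 under normexp, and Mmp15 for PD123319 at 3 h was -0.11 with no filter. Lamc1 for Ang II at 3 h was -0.043 under the 75th percentile, -0.028 under quantile normalization and -0.0049 in the deposited values, and for PD123319 at 6 h it was 0.0063 under the 75th percentile. Timp1 for PD123319 was 0.088 under the 75th percentile at 3 h, and at 6 h -0.032 under quantile normalization and -0.038 in the deposited values. Where not stated, the cause of a change was not tested.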
